A study of Mus musculus with 26 samples.

Results

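The growth hormone axis of the liver was followed through 10 genes: the receptors Ghr and Prlr, the signal transducers Stat5a and Stat5b, the secreted products Igf1 and Igfals, the feedback inhibitors Socs2 and Cish, and the repressors Bcl6 and Cux2. The rows were found by Ensembl identifier, with its version removed, in a table of read counts for 47643 mouse genes, and all 10 were present. The 26 libraries, made from liver messenger RNA, fall into 10 groups, which pair up as 5 comparisons of a group with its own control.

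In the first comparison, wild type C57BL/6J mice of 8 weeks, fed ad libitum, had been given corn oil (2 libraries) or TCPOBOP (2 libraries), an agonist of the constitutive androstane receptor CAR. The labels disagree on the time after TCPOBOP, with 36 h in the sample titles and 6 h in the source names. In the second, Fxr-/- Shp-/- mice (3 libraries), labelled as lacking Fxr, the nuclear receptor for bile acids encoded by Nr1h4, and Shp, a corepressor encoded by Nr0b2, were set against wild type mice (3 libraries), all C57BL/6J, 12 weeks old and fed ad libitum. In the third, C3H/HeN mice of 8 to 10 weeks, fed ad libitum, were taken 48 h after partial hepatectomy (3 libraries) or as a 0 h sham (3 libraries), so the sham mice were not matched in time. In the fourth, hepatocytes had been isolated from wild type C57BL/6J mice of 16 weeks after a 10 h fast, on chow (2 libraries) or a 60% high fat diet (2 libraries). In the fifth, C57BL/6J mice of 10 to 12 weeks with the genotype fl/fl Fxr fl/fl Shp, for which the labels name no Cre, had been fed chow (3 libraries) or a cholic acid diet (3 libraries) and fasted for 8 to 10 h. Every group except the isolated hepatocytes was whole liver, and the labels do not say whether the libraries of a group came from separate animals. The p-values therefore measure the spread between these libraries, which may be technical.

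Growth hormone from the pituitary binds its receptor on hepatocytes, and the kinase Jak2 then phosphorylates STAT5. STAT5 enters the nucleus and activates Igf1 and other targets, among them the inhibitors Socs2 and Cish, which act back on the signal. In rodents growth hormone is released in pulses in males and more evenly in females, and the liver reads this difference through STAT5, with Bcl6 known as a male-biased and Cux2 as a female-biased repressor.

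Gene counts per library ranged from 13949059 to 70367874, and levels are given as CPM, the counts scaled to a common library size by TMM (the trimmed mean of M-values) over all 26 libraries. The lines of the table that name no gene took 47.6 to 48.6% of the reads in wild type libraries and 32.1 to 33.6% in Fxr-/- Shp-/- libraries, a difference that cannot be told apart from the genotype. The targeted gene Nr0b2 read 13.1 to 26.5 CPM in wild type and 0.558 to 1.59 CPM in the knockout, and Nr1h4 113 to 151 and 52.3 to 61 CPM. Nr1h4 reads were thus lower but not absent in the knockout libraries, and counts per gene do not show which exons they came from. Cyp2b10, a CAR target gene, read 3430 and 2988 CPM after TCPOBOP and 9.94 CPM in corn oil 2, but 3706 CPM in the library labelled corn oil 1, which goes against its label. Xist had at most 8 counts in any library and the Y-linked Ddx3y at least 45.2 CPM in every one. The summed level of 6 hepatocyte markers, most of it from Alb, was between 45956 and 130061 CPM in every library.

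Reference promoters were read because STAT5 binds the palindrome TTCNNNGAA, whose search covers both strands at once. RefSeq windows of 300 bases on GRCm38.p6, from 250 before to 50 after each gene start, matched 9 of the 10 members (all but Socs2) with 18 windows. Of these, 6 windows of 4 members (Cish, Bcl6, Igfals and Prlr) held the motif. Of all 32851 windows in the table, 8.3% held it and 0.457% held it at least 2 times. Cish and Bcl6 had the windows with most matches. Both are printed 5′ to 3′ on the gene's strand, with each match to the motif in capitals. The Cish stretch is chr9:107296409-107296678 on the plus strand and the Bcl6 stretch chr16:23981284-23981533 on the minus strand.
Cish: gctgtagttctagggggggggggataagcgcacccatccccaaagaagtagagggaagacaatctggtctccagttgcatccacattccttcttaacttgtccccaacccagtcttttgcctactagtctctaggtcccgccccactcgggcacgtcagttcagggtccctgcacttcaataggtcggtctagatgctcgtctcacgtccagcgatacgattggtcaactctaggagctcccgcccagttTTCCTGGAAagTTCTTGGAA
Bcl6: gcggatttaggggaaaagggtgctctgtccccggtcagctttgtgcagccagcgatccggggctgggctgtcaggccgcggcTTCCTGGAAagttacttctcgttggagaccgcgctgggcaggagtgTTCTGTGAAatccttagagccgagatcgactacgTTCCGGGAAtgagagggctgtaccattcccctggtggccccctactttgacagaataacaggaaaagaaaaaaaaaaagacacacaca
The Cish matches, TTCCTGGAA and TTCTTGGAA, begin at and 11 bases after the RefSeq start. The Bcl6 matches, TTCCTGGAA, TTCTGTGAA and TTCCGGGAA, begin 168, 122 and 88 bases before the start, and a second Bcl6 window held TTCTCAGAA 118 bases before its start. Igfals held TTCTCAGAA 236 bases before one start and TTCCTAGAA 58 bases before another, and Prlr held TTCTAGGAA 110 bases before one of its 3 starts. A match describes the letters of the window and no binding was measured.

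Each comparison was fitted alone with edgeR's quasi-likelihood test over all genes that passed a filter on low counts, and a gene was called at a Benjamini-Hochberg adjusted p under 0.05. The knockout had most calls: 7 of the 10 members were called, 2 raised (Cish, Prlr) and 5 lowered (Ghr, Stat5b, Igf1, Igfals, Bcl6), against 40.4% of all genes tested. After hepatectomy 6 of 10 were called, all lowered (Ghr, Prlr, Stat5b, Igf1, Igfals, Cux2), against 30.7% of all genes. On cholic acid 4 of 10 were called, with Stat5b and Cux2 raised and Ghr and Igfals lowered, against 4.77% of all genes. Cux2 passed the filter there only through the cholic acid libraries, so it had to differ to be tested; of the 9 members that passed through both groups 3 were called. In hepatocytes of mice on the high fat diet 0 of 10 were called, against 24.0% of all genes, and Socs2 and Bcl6 had unadjusted p-values of 0.0363 and 0.042 by edgeR. Of the 9 members tested after TCPOBOP 0 were called, against 0.00% of all genes.

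**Figure D1:**
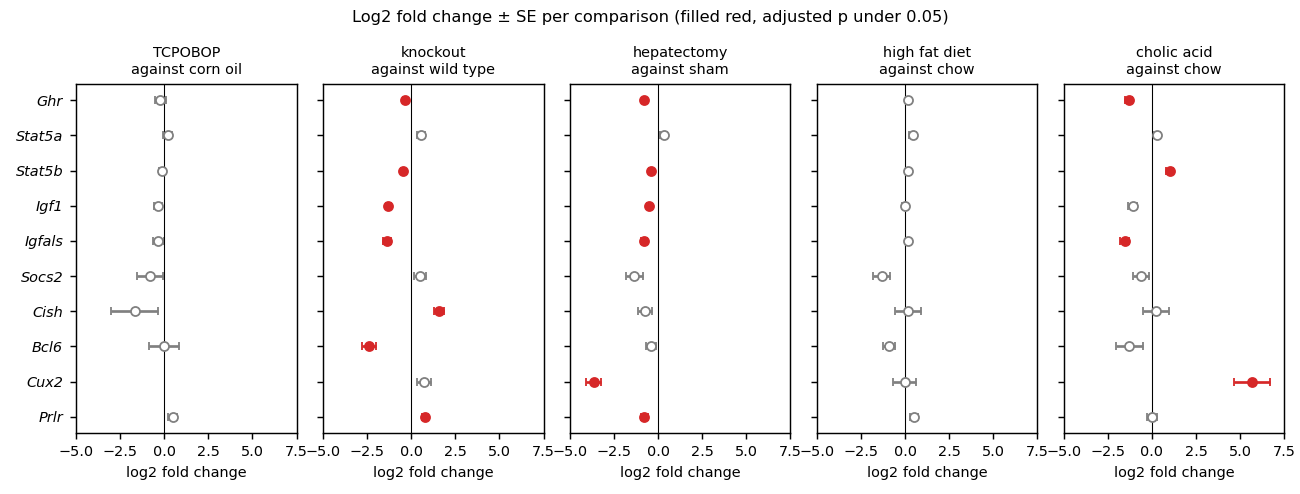
Log2 fold change ± SE of the 10 members (rows) in each of the 5 comparisons (panels), from edgeR. Filled red points passed the adjusted p of 0.05, and Cux2 stands far from the rest, at -3.65 after hepatectomy and 5.68 on cholic acid; it is absent from the first panel because it was not tested there.

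Ghr, the growth hormone receptor (chromosome 15, 3317760 to 3583492, minus strand, GRCm38 in GENCODE M21), had its lowest means on cholic acid (222 ± 46.8 CPM, SD, n = 3) and in the knockout (275 ± 26.1 CPM, n = 3), and its highest in sham liver (805 ± 16.1 CPM, n = 3) and high fat hepatocytes (789 ± 42.1 CPM, n = 2). Neither pair differed beyond its spread. It read 515, 514 and 629 CPM in floxed mice on chow and 258, 169 and 239 CPM on cholic acid. All 3 cholic acid libraries lay below all 3 chow libraries, a log2 fold change of -1.32 ± 0.21 (SE; adjusted p 0.0131 by edgeR). Without cholic acid 3 the value was -1.38 with an adjusted p of 0.0526. After hepatectomy Ghr read 427, 470 and 528 CPM against 787, 815 and 814 CPM in sham, again with no overlap, and fell by 0.77 ± 0.10 on the log2 scale (adjusted p 0.000816 by edgeR). The knockout libraries read 292, 287 and 245 CPM against 361, 381 and 324 CPM in wild type, a smaller difference of -0.36 ± 0.11 (adjusted p 0.0333 by edgeR). That call was lost without wild type 1 or 2 or any 1 of the 3 knockout libraries, with values of -0.27 to -0.41 and adjusted p-values of 0.051 to 0.0957, and with libraries scaled by total counts alone the value was -0.16. With all 26 libraries in one fit it was -0.38 with an adjusted p of 0.0964. The 6 hepatocyte markers had median log2 fold changes of -0.43 in the knockout and -0.35 after hepatectomy, and their part in the Ghr values was not tested. In the isolated hepatocytes Ghr read 668 and 723 CPM on chow and 759 and 819 CPM on high fat diet, a log2 difference of 0.15 ± 0.09 (adjusted p 0.265 by edgeR).

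Prlr, the prolactin receptor, which also signals through STAT5 and is known as female-biased in mouse liver, moved in opposite directions in Fxr-/- Shp-/- liver and after hepatectomy. It read 117, 109 and 98 CPM in the knockout and 79.3, 53.4 and 56.2 CPM in wild type, so each knockout library lay above each wild type library (log2 fold change 0.79 ± 0.15, adjusted p 0.00383 by edgeR). After hepatectomy it read 113, 73.3 and 129 CPM against 152, 191 and 191 CPM in sham, all below the controls (-0.77 ± 0.20, adjusted p 0.0214 by edgeR). Without sham 2 the hepatectomy value was -0.72 with an adjusted p of 0.0773, and without sham 3 it was -0.71 with an adjusted p of 0.0805. The 2 high fat libraries (118 and 172 CPM) lay above both chow libraries (113 and 87.4 CPM), with a log2 difference of 0.51 ± 0.21 that missed the threshold (adjusted p 0.126 by edgeR). Without high fat 1 it was 0.75 with an adjusted p of 0.0478. On cholic acid Prlr read 105, 73.2 and 64.4 CPM against 52.7, 87.1 and 99.6 CPM on chow, overlapping, with a log2 difference of 0.01 ± 0.27. Its exons share 203 bases with Gm21973 on the same strand in GENCODE M21.

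Stat5b, the STAT5 form that carries most of the growth hormone signal in mouse liver, fell in Fxr-/- Shp-/- liver and after hepatectomy and rose on cholic acid. On cholic acid it read 70.2, 73.5 and 96 CPM against 43.7, 34.8 and 40.6 CPM on chow, with no overlap and a log2 fold change of 1.00 ± 0.18 (adjusted p 0.0211 by edgeR). In the knockout it read 42.7, 41.2 and 36.8 CPM against 51.4, 62.3 and 52.3 CPM, all below wild type (-0.45 ± 0.11, adjusted p 0.0117 by edgeR). After hepatectomy it read 37, 33.5 and 44.6 CPM against a tight sham group of 51.3, 51.3 and 50.6 CPM (-0.42 ± 0.11, adjusted p 0.0242 by edgeR). The cholic acid call was lost without chow 1 or 2 or any 1 of the 3 cholic acid libraries (0.85 to 1.09, adjusted p 0.0505 to 0.0966), and the hepatectomy call without any 1 of the 3 sham libraries or without hepatectomy 1 or 2 (-0.33 to -0.42, adjusted p 0.0564 to 0.0813). With total counts alone the knockout value was -0.25 and the hepatectomy value -0.24, and neither passed. Both falls of Stat5b were near the medians of the 6 hepatocyte markers, -0.43 in the knockout and -0.35 after hepatectomy. The part of the markers in these values was not tested. Stat5b on high fat diet (71.2 and 64.4 CPM) lay above chow (61.9 and 55.3 CPM) by 0.18 ± 0.10, which did not pass (adjusted p 0.218 by edgeR).

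Stat5a, the sister form, was not called in any of the 5 comparisons. Knockout libraries read 15.9, 16.2 and 9.67 CPM against 8.55, 10.7 and 9.06 CPM in wild type, where knockout 3 lay among the controls. The log2 difference was 0.57 ± 0.21 with an adjusted p of 0.0552 by edgeR. It was 0.79 with an adjusted p of 0.00127 without knockout 3, and DESeq2 gave 0.58 with an adjusted p of 0.0417. In hepatocytes it read 22.2 and 15.5 CPM on high fat diet and 13.6 and 13.8 CPM on chow, a log2 difference of 0.43 ± 0.18 (adjusted p 0.129 by edgeR). Without high fat 2 it was 0.66 with an adjusted p of 0.0321. Its exons overlap 72 bases of Stat3 on the opposite strand, and the strand setting used in counting is not given in the sources used here.

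Igf1, the circulating growth factor made mainly by the liver (chromosome 10, 87858265 to 87937042, plus strand), and Igfals, the acid-labile subunit that carries it in blood (chromosome 17, 24865997 to 24882010, plus strand), had fold changes of the same sign in the knockout, after hepatectomy and on cholic acid. Igf1 in the knockout read 195, 158 and 217 CPM against 527, 442 and 438 CPM in wild type, a 2.45-fold lower level with no overlap (-1.29 ± 0.14, adjusted p 0.000175 by edgeR). Igfals read 23.5, 20.1 and 13.9 CPM against 68.6, 40.8 and 41.2 CPM, 2.59-fold lower and also without overlap (-1.37 ± 0.24, adjusted p 0.00256 by edgeR). Both calls held under each alternative tried and without each library in turn. The summed hepatocyte markers were also lower there, 59888 to 82691 CPM against 84751 to 112780 CPM. Most of each sum was Alb (44031 to 60286 CPM against 59229 to 83842 CPM), which overlapped and was not called. Of the 6 markers 3 were called lowered, with a median of -0.43, and the part of the markers in these values was not tested. In bulk liver fewer hepatocytes and less RNA per hepatocyte cannot be told apart.

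After hepatectomy Igf1 read 770, 628 and 740 CPM against 947, 1036 and 1043 CPM in sham, and every hepatectomy library lay below every sham library (-0.51 ± 0.10, adjusted p 0.0077 by edgeR, 0.0671 with all 26 libraries in one fit). Igfals read 117, 83 and 140 CPM against 187, 199 and 210 CPM (-0.81 ± 0.17, adjusted p 0.00977 by edgeR). The hepatocyte markers summed to 94933 to 105840 CPM against 126003 to 130061 CPM, with 4 of 6 lowered and a median of -0.35, a part that was not tested. On cholic acid Igfals read 49.7, 39.7 and 25.1 CPM against 121, 113 and 98.1 CPM on chow, a 2.93-fold lower level (-1.55 ± 0.25, adjusted p 0.0141 by edgeR). Without chow 2 that value was -1.54 with an adjusted p of 0.056, and without cholic acid 2 it was -1.58 with an adjusted p of 0.0642. Igf1 read 445, 248 and 239 CPM against 702, 662 and 626 CPM, with no overlap, yet its log2 difference of -1.10 ± 0.26 just missed the threshold (adjusted p 0.0506 by edgeR). Cholic acid 1 was the high library of its group, and without it the value was -1.45 with an adjusted p of 0.0236. Without chow 3 it was -1.14 with an adjusted p of 0.039, and DESeq2 gave -1.11 with an adjusted p of 0.00112. Here the hepatocyte markers of the groups overlapped (97799 to 124670 CPM on cholic acid, 97359 to 114388 CPM on chow) and 0 of 6 were called.

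In isolated hepatocytes Igf1 was level between the diets, with 639 and 848 CPM on high fat diet and 781 and 695 CPM on chow (log2 difference -0.02 ± 0.15, adjusted p 0.95 by edgeR). Igfals read 159 and 167 CPM against 140 and 146 CPM, above the controls by 0.16 ± 0.08, and missed the threshold (adjusted p 0.186 by edgeR); with total counts alone the value was 0.29 with an adjusted p of 0.0434. Markers of other liver cells were low in these libraries but differed by diet: 7 Kupffer cell markers summed to 71.9 to 79.3 CPM on high fat diet and 41 to 42.7 CPM on chow, 6 sinusoidal endothelial markers to 124 to 125 CPM and 48.8 to 49.3 CPM, and 6 stellate cell markers to 40.4 to 42.7 CPM and 9.89 to 16.7 CPM. edgeR called 5 of 7 Kupffer, 6 of 6 endothelial and 5 of 6 stellate markers raised, and their part in any value of the high fat comparison was not tested.

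**Figure D2:**
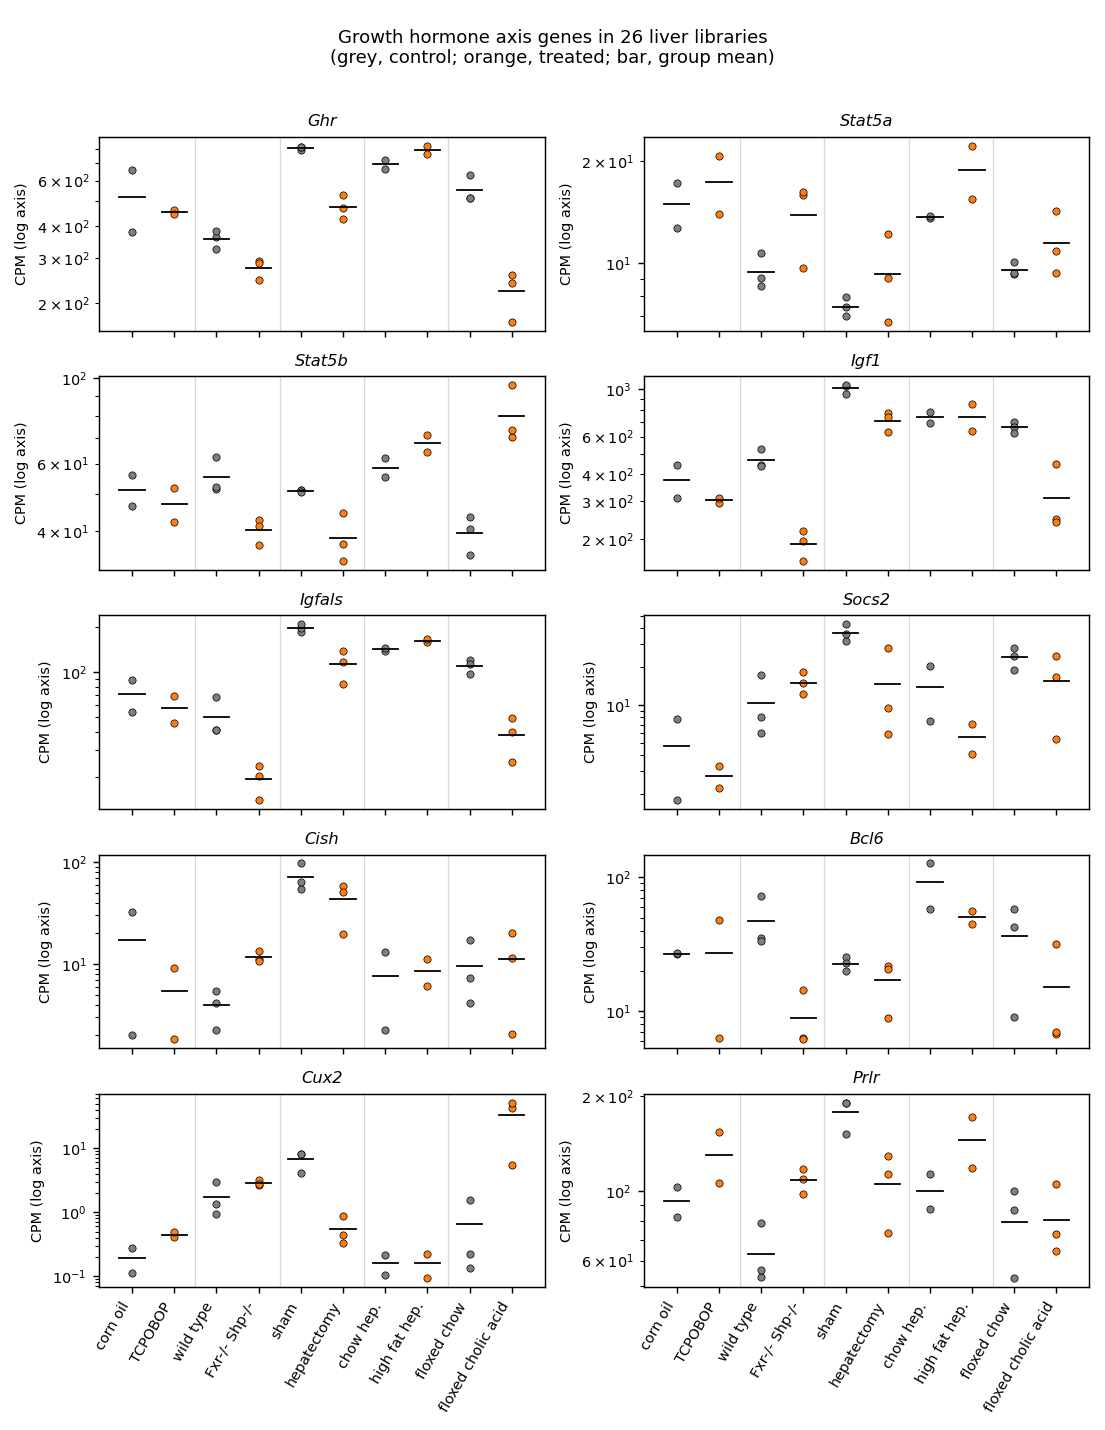
CPM of each member in every library (points, log axis; the axis range differs by panel) with the group mean (bar); grey, control group; orange, the group compared with it. Igf1 of the 3 knockout libraries sits at 158 to 217 CPM, below the 438 to 527 CPM of wild type, and Cux2 spans the widest range, from 0.0926 to 51.7 CPM.

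Of the feedback inhibitors, Cish (chromosome 9, 107296026 to 107302784, plus strand), which blocks STAT5 docking at the receptor, was raised in Fxr-/- Shp-/- liver: 11.2, 13.4 and 10.7 CPM against 5.48, 2.26 and 4.12 CPM in wild type, with no overlap (2.99-fold, log2 1.58 ± 0.26, adjusted p 0.0019 by edgeR). In a fit of all 26 libraries, which gives every group one estimate of the spread, the value was 1.56 with an adjusted p of 0.173. Its level after hepatectomy was 58.6, 19.7 and 50.5 CPM against 96.7, 54.5 and 63.5 CPM in sham, overlapping (-0.74 ± 0.38, adjusted p 0.173 by edgeR). On cholic acid Cish ran from 2.05 to 20.3 CPM and on chow from 4.17 to 17.1 CPM, a spread that covers the difference of 0.22 ± 0.74. In hepatocytes it read 6.15 and 11.1 CPM on high fat diet and 2.25 and 13 CPM on chow. Without chow 2 the high fat value was 1.90 with an adjusted p of 0.0149, against 0.15 ± 0.73 with it. GENCODE M21 places exons of Gm17040 (261 bases) and Gm17041 (479 bases) over Cish on the opposite strand, so its counts are uncertain to that extent.

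Socs2, the inhibitor that targets the growth hormone receptor for degradation, was not called in any of the 5 comparisons. In the knockout it read 14.8, 12.2 and 18 CPM against 17.2, 5.99 and 8.02 CPM in wild type, where wild type 1 lay with the knockouts (0.53 ± 0.34, adjusted p 0.239 by edgeR). Without wild type 1 the value was 1.11 with an adjusted p of 0.00735. After hepatectomy all 3 libraries (28.1, 5.95 and 9.48 CPM) lay below the sham libraries (43.1, 31.7 and 36.1 CPM), by -1.35 ± 0.49 with an adjusted p of 0.069 by edgeR. Without hepatectomy 1 the value was -2.26 with an adjusted p of 0.000565. With no filter on low counts the hepatectomy difference passed (adjusted p 0.022). In hepatocytes both high fat libraries (4.08 and 7.11 CPM) lay below both chow libraries (20.1 and 7.53 CPM), by -1.33 ± 0.49 (adjusted p 0.1 by edgeR). Without chow 2 the value was -1.88 with an adjusted p of 0.00592. On cholic acid the groups overlapped, with 24.1, 16.7 and 5.39 CPM against 18.7, 28 and 24.4 CPM.

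Bcl6 (chromosome 16, 23965052 to 23988852, minus strand), a transcriptional repressor that competes with STAT5 for sites and is itself repressed by STAT5, had the greatest fall of the 10 members in Fxr-/- Shp-/- liver. It read 6.31, 14.3 and 6.16 CPM there and 35.2, 72 and 33.7 CPM in wild type, a 5.23-fold lower level with no overlap (-2.39 ± 0.40, adjusted p 0.00192 by edgeR). The call held under each alternative tried and without each library in turn. On cholic acid 2 libraries were low (6.71 and 7.02 CPM) and 1 was not (31.8 CPM), while chow 1 was as low as they were (9.05 CPM, against 42.7 and 58.1 CPM in the others), and the difference of -1.28 ± 0.76 did not pass (adjusted p 0.351 by edgeR). In hepatocytes Bcl6 read 55.9 and 44.5 CPM on high fat diet and 127 and 58.1 CPM on chow (-0.92 ± 0.35, adjusted p 0.111 by edgeR); without chow 2 the value was -1.38 with an adjusted p of 0.00139. After hepatectomy it read 8.87, 21.9 and 20.7 CPM against 25.3, 19.9 and 22.8 CPM in sham, overlapping.

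Cux2 (chromosome 5, 121856366 to 122050102, minus strand), a homeobox repressor known for female-biased expression in liver, was low in most groups and changed most where it changed. After hepatectomy it read 0.861, 0.438 and 0.328 CPM against 4.1, 8.17 and 8.07 CPM in sham, 12.5-fold lower with no overlap (-3.65 ± 0.41, adjusted p 0.00047 by edgeR), and the call held under each alternative tried and without each library in turn. On cholic acid it read 43.1, 51.7 and 5.53 CPM against 0.219, 0.136 and 1.58 CPM on chow, from 854, 958 and 116 counts against 3, 2 and 22 counts. All cholic acid libraries lay above all chow libraries, by 5.68 ± 1.02 on the log2 scale (adjusted p 0.02 by edgeR). As given above, the filter let it be tested only through its high group. The call was lost without chow 1 or 2 or without cholic acid 1 or 2, with values of 5.18 to 5.46 and adjusted p-values of 0.0576 to 0.0822. Knockout libraries held Cux2 at 2.66, 3.23 and 2.77 CPM against 2.92, 0.95 and 1.34 CPM, where wild type 1 lay among the knockouts (0.73 ± 0.37, adjusted p 0.142 by edgeR). Without wild type 1 the value was 1.34 with an adjusted p of 0.0113. The hepatocytes held 0.0926 to 0.226 CPM on either diet, and after TCPOBOP Cux2 (0.407 and 0.488 CPM, against 0.111 and 0.276 CPM) fell under the filter.

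TCPOBOP left the other members without a call: Ghr read 463 and 443 CPM against 378 and 658 CPM, and Igf1 294 and 312 CPM against 309 and 444 CPM, each overlapping. edgeR called 0 of 12785 genes in this comparison, 751 had an unadjusted p under 0.05, and DESeq2 called 94. The 2 corn oil libraries differed 16-fold in Cish (2 and 32.1 CPM) and 4.37-fold in Socs2 (1.78 and 7.79 CPM), with corn oil 1, the library that goes against its label, at the low end of both. Without that library corn oil 2 stands alone and is assumed to vary like the other group. The values were then -0.56 for Ghr, -0.57 for Igf1, -1.52 for Socs2 and -2.57 for Cish. Over the 4 fits that each left out 1 library they ran from -0.56 to 0.26 for Ghr and -0.57 to -0.03 for Igf1. For Socs2 they ran from -1.52 to 0.63 and for Cish from -3.2 to 1.44.

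Levels between genes can be compared only per length, as CPM per kilobase of exon. On that scale Igf1 was the highest member in sham liver (102 ± 5.44, SD, n = 3), followed by Ghr (89 ± 1.77) and Igfals (62.8 ± 3.7), and Cux2 was the lowest (0.673 ± 0.23). In Fxr-/- Shp-/- liver the order of Igf1 and Ghr had turned, with Ghr at 30.4 ± 2.89 and Igf1 at 19.2 ± 3.03, where wild type had 39.3 ± 3.2 and 47.3 ± 5.08. Stat5b stood above Stat5a in every group, by the smallest ratio after TCPOBOP (8.51 ± 1.23 against 2.44 ± 0.67) and by the largest on cholic acid (14.4 ± 2.53 against 1.61 ± 0.356). By mean CPM, Igf1 ran from sham (1009 ± 53.8) through high fat hepatocytes (744 ± 148), chow hepatocytes (738 ± 60.8), hepatectomy (713 ± 75.1), floxed chow (663 ± 37.8), wild type (469 ± 50.4), corn oil (377 ± 95.3), cholic acid (311 ± 116) and TCPOBOP (303 ± 12.7) to the knockout (190 ± 30). Neighbours from high fat hepatocytes down to floxed chow did not differ beyond their spread, and neither did those from wild type to TCPOBOP. Strain, age, feeding state and tissue differ between experiments, so this order is a description.

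The differences between effects were tested directly in joint fits, and the hepatectomy and cholic acid pair was added after Cux2 had been seen to move in opposite directions in them. The knockout effect differed from the hepatectomy effect in 6 of 10 members (31.5% of all genes tested): Igf1 by -0.77 ± 0.18 and Bcl6 by -1.97 ± 0.55, both lower in the knockout, and Cish by 2.34 ± 0.53, Prlr by 1.57 ± 0.27, Cux2 by 4.39 ± 0.59 and Socs2 by 1.90 ± 0.67, with adjusted p-values of 0.00012 to 0.0442 by edgeR. The Socs2 difference is the least firm, since it was lost in 10 of 12 fits that left out 1 library, with values of 1.53 to 2.03 and adjusted p-values of 0.0528 to 0.104, and passed only without wild type 1 or hepatectomy 1. With all 26 libraries in one fit Socs2, Cish and Bcl6 did not pass (adjusted p 0.0915, 0.153 and 0.135), and with DESeq2 Socs2 did not (0.0648). The knockout effect differed from the cholic acid effect in 3 of 10 (13.9% of all genes): Ghr by 0.97 ± 0.24, Stat5b by -1.44 ± 0.21 and Cux2 by -4.95 ± 1.18. Without wild type 3 the Ghr value was 0.90 with an adjusted p of 0.0513, and without wild type 1 the Cux2 value was -4.33 with an adjusted p of 0.0577. For Igf1 and Igfals that difference was -0.18 ± 0.30 and 0.19 ± 0.38, which did not pass and does not show that the effects are alike. Against the high fat effect, the knockout effect was lower for Stat5b (-0.62 ± 0.16), Igf1 (-1.27 ± 0.23) and Igfals (-1.53 ± 0.34), 3 of 10 members against 16.1% of all genes. The Stat5b value was -0.54 without chow 2 and -0.61 without high fat 1, and then did not pass (adjusted p 0.104 and 0.067), nor did it with total counts (-0.56, 0.0705) or all 26 libraries (-0.68, 0.0563). The hepatectomy effect differed from the cholic acid effect for Stat5b (-1.41 ± 0.21), where 13.0% of all genes were called. The Cux2 difference of -9.32 ± 1.20 is the one that prompted this comparison. Since the pair was added after the data had been seen, the Stat5b and Cux2 values are given as a description.

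Genes that growth hormone and STAT5 are known to set differently in male and female liver were followed as 2 lists of 16 male-biased and 26 female-biased genes, many from near-identical families (Cyp2, Sult2a, Mup) whose copies are uncertain as single genes. Both lists were chosen with earlier results of these data known, so their counts are a description and not a test. In Fxr-/- Shp-/- liver 40.4% of all genes were called, 2823 raised and 2618 lowered of 13473 tested. There 16 of 16 male-biased genes tested were lowered. Their median log2 fold change was -5.64 (-0.007 over all genes), and 23 of 24 female-biased genes tested were raised. Of these, 8 male-biased genes passed the filter only through wild type and 13 female-biased genes only through the knockout, so they had to differ. Of those that passed through both groups, 8 of 8 were lowered and 10 of 11 raised. The genes named next all passed only through wild type or only through the knockout, so they are among those that had to differ. Slco1a1, an organic anion transporter, fell from 4529, 5126 and 4381 counts in the wild type libraries to 10, 1 and 1 in the knockout. Elovl3, a fatty acid elongase, had 2746, 2172 and 2777 counts against 3, 0 and 15. Moxd1 was at 0 counts in all 3 knockout libraries, against 187, 34 and 28 in wild type. On a floor of 3 counts per library it was at least 30.4-fold below the wild type mean, which rests mostly on wild type 1. The bile acid and steroid sulfotransferases Sult2a2 and Sult2a3 were at 0 counts in all 3 wild type libraries, at least 1508-fold and 340-fold higher in the knockout, and Sult2a1 had 4, 1 and 4 counts against 26794, 23487 and 33389. With such genes at their bound the medians were -5.26 and 4.39.

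On the high fat diet no member was called, against 24.0% of all genes. There 15 of 16 male-biased genes were lowered, with a median of -2.60, and 8 of 15 female-biased genes were raised and 2 lowered. Of these, 2 lowered male-biased and both lowered female-biased genes passed the filter only through chow, and 3 raised female-biased genes only through the high fat diet. Among genes that passed through both groups 13 of 14 male-biased genes were lowered, and 5 of 10 female-biased genes were raised and 0 lowered. The 2 lowered male-biased genes that passed only through chow were Moxd1 (5925 and 11330 counts on chow, 7 and 6 on high fat diet) and Cspg5 (-5.43 ± 0.25). Selenbp2 (-4.84 ± 0.27), also lowered, passed through both groups. Of the raised female-biased genes, Cyp2b9 (8.29 ± 0.51) passed through both groups. Ntrk2 (7.36 ± 0.75) and Cyp2b13 (0 and 2 counts on chow, 125 and 51 on high fat diet) passed only through the high fat diet, so they had to differ. Cyp2c40 (-5.32 ± 0.74) and Cyp2c69 (-4.08 ± 0.86), also female-biased, were lowered. On cholic acid, where 4.77% of all genes were called, 9 of 15 male-biased genes were lowered and 0 raised, with a median of -2.36. The lowered were led by Selenbp2 (-6.07 ± 0.58), the steroid enzyme Hsd3b5 (-5.98 ± 0.58) and Ugt2b38 (-4.89 ± 0.68). Only 5 were lowered without chow 2 and 4 without cholic acid 1. Ugt2b38 passed the filter only through chow, so it had to differ, and among those that passed through both groups 8 of 13 were lowered. Of 12 female-biased genes tested there 1, Prom1, was raised, and it passed the filter only through the cholic acid libraries, so it had to differ. Of the 8 that passed through both groups 0 were called by edgeR. The number raised moved with the analysis: DESeq2 called 5, no filter 7 and the fit of all 26 libraries 7, and without chow 3 or without cholic acid 3 it was 2. After hepatectomy, where 30.7% of all genes were called, 6 of 15 male-biased genes were lowered and 2 raised. The lowered included the fatty acid hydroxylase Cyp4a12a (-1.41 ± 0.17), Selenbp2 (3708, 6707 and 5789 counts in sham, 3162, 2625 and 3283 after hepatectomy) and Mup20 (-0.97 ± 0.20). The raised were Elovl3 (1.27 ± 0.28) and Gstp1 (0.49 ± 0.15). Of the female-biased genes, with Cux2 lowered, 6 of 15 were lowered and 0 raised, among them Cyp2c40 (-5.02 ± 0.75) and Cyp2a4 (-2.57 ± 0.72). Of these, 2, with Cyp2c40 among them, passed the filter only through sham. Among genes that passed through both groups 4 of 10 were lowered and 0 raised. Of all genes tested 30.7% were called in either direction, and 1969 of 13753 were lowered. Without hepatectomy 2 the number raised was 1 and without hepatectomy 3 it was 2. After TCPOBOP 0 of 15 male-biased and 0 of 18 female-biased genes were called by edgeR. Without corn oil 1 these were 6 lowered and 7 raised, and without corn oil 2 they were 3 and 2.

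**Figure D3:**
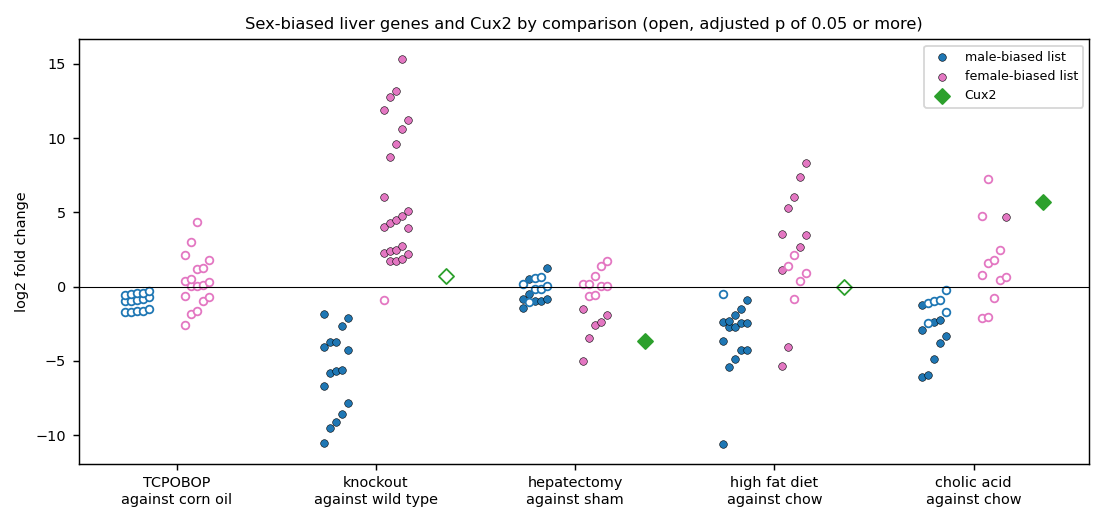
Log2 fold change of male-biased genes (blue), female-biased genes (pink) and Cux2 (green diamond) in each comparison; filled symbols passed the adjusted p of 0.05. Both lists were chosen with earlier results of these data known. In the knockout all 16 male-biased genes lie below 0 and 23 of 24 female-biased genes above it while Cux2 is open at 0.73; the fitted values of genes at or near 0 counts in a group are not bounds.

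Of the insulin-like growth factor system besides Igf1 and Igfals, 15 genes were listed and 10 to 11 tested per comparison. In Fxr-/- Shp-/- liver 3 of 11 rose, the protease Htra1 (1.44 ± 0.27), the clearance receptor Igf2r (0.98 ± 0.12) and Igfbp7 (0.98 ± 0.12), and 1 fell, the binding protein Igfbp2 (-2.36 ± 0.21), a share below the 40.4% of all genes. There 6 stellate cell markers summed to 376 to 437 CPM against 176 to 287 CPM in wild type, with 4 of 6 called raised, and 6 bile duct markers to 54.9 to 128 CPM against 26.2 to 35.8 CPM, with 5 of 6 raised, and their part was not tested. After hepatectomy 5 of 11 fell and 0 rose, led by the binding proteins Igfbp1 (-3.13 ± 0.63) and Igfbp3 (-1.70 ± 0.19) and by the insulin receptor Insr (-0.54 ± 0.11), where 30.7% of all genes were called. On high fat diet Igfbp5 (3.30 ± 0.28), Igfbp3 (1.98 ± 0.33) and Igfbp7 (1.45 ± 0.12) rose and Igfbp2 (-1.35 ± 0.20) and Igf2r (-0.36 ± 0.09) fell among 11 tested, where 24.0% of all genes were called, beside the higher endothelial and stellate markers given above for these hepatocytes. On cholic acid 0 of 10 were called by edgeR. Igfbp1, which fasting is known to raise, read 50.2, 72.5 and 753 CPM in the floxed chow libraries and 223, 195 and 1375 CPM on cholic acid, so chow 3 and cholic acid 3 stood apart from their groups.

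Of 21 listed genes of receptor signalling, such as Jak2, Stat3 and the other Socs genes, 3 of 20 rose and 6 fell in the knockout. The risen were Socs3 (0.96 ± 0.23), another inhibitor of cytokine signalling, Socs5 (0.53 ± 0.16) and Stat3 (0.46 ± 0.10), and the fallen were led by the adaptors Irs1 (-0.69 ± 0.18) and Shc1 (-0.45 ± 0.11) and by Socs7 (-0.41 ± 0.10). After hepatectomy 3 of 21 rose (Pias3 0.56 ± 0.17, Stat3 0.32 ± 0.09, Shc1 0.24 ± 0.08) and 4 fell, led by Irs2 (-0.79 ± 0.21), Socs7 (-0.61 ± 0.10) and Sh2b1 (-0.51 ± 0.11). On high fat diet the called genes included Ptpn6 (0.48 ± 0.11), which rose, and Sos1 (-0.53 ± 0.08) and Socs7 (-0.49 ± 0.09), which fell. In the knockout and after hepatectomy the shares called lie near the share of all genes called.

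Socs2, Cish, Bcl6 and Cux2 varied far more between libraries of one group than most genes did. Their within-group coefficients of variation had medians over the 10 groups of 47.9, 59.3, 49.2 and 55.6%, against 10.7% for the typical gene of 12179 with a mean of at least 1 CPM, and Cish lay above the typical gene in 10 of 10 groups. Cux2 had a mean under 1 CPM in 6 of the 10 groups, where its variation also holds counting error. Ghr (8.82%), Igf1 (10.6%) and Stat5b (11.2%) were as even as the typical gene. Deviations of libraries from their group means were correlated on a log2 scale. Cish and Bcl6 moved in opposite directions (r = -0.67), Igf1 and Socs2 in the same direction (r = 0.71), and Igfals with Socs2 (0.62), Cish (0.56) and Igf1 (0.57). Stat5a and Socs2 had r = -0.68. In cholic acid 3, for example, Cish was the lowest of its group (2.05 CPM) and Bcl6 the highest (31.8 CPM), and in floxed chow 1 Cish was the highest (17.1 CPM) and Bcl6 the lowest (9.05 CPM). These correlations are over 26 libraries that share depth and scaling within an experiment, groups of 2 give mirrored points, and they are given without a p. The corn oil pair is included, with Cish at 2 and 32.1 CPM and Socs2 at 1.78 and 7.79 CPM. Its first library goes against its label, and the part of this pair in the correlations was not tested.

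**Figure D4:**
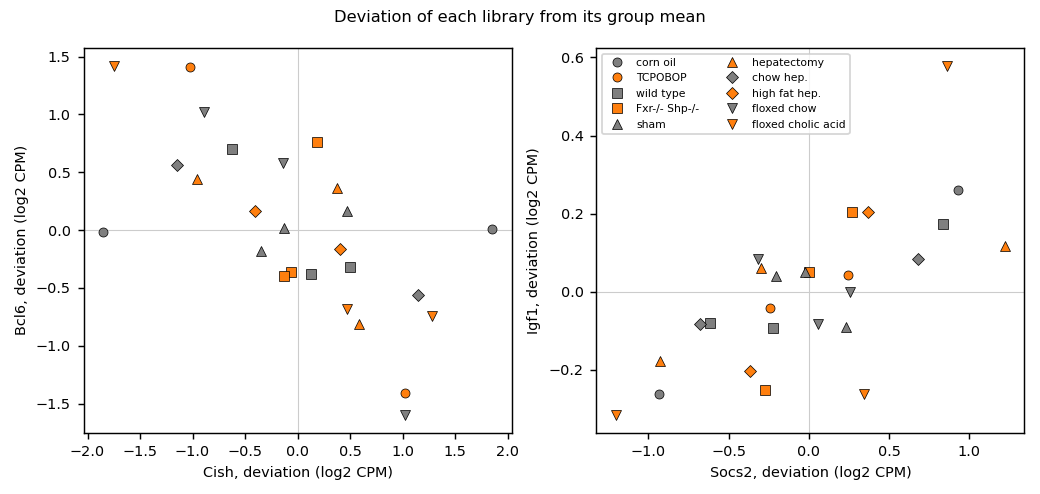
Deviation of each of 26 libraries from its group mean in log2 CPM, for Bcl6 against Cish (left) and Igf1 against Socs2 (right); marker shape is the experiment, grey the control and orange the compared group. The left points run from upper left to lower right (r = -0.67) and the right points from lower left to upper right (r = 0.71). The corn oil pair, with the library that goes against its label, is included.

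Among 10533 named genes, those most like Igf1 over the 26 libraries, after centring each experiment on its mean, were Ces3b, a carboxylesterase (r = 0.92), Igfals (0.91) and Fam114a2 (0.90). Socs2 was most like Tcp11l2 (0.80), Cpn1 (0.76) and Map1lc3a (0.75), and Bcl6 most like Brcc3 (0.77), Xiap (0.75) and Actr10 (0.74). Cux2 was most like Soat2, a cholesterol esterifying enzyme, Phka2 and the iron exporter Slc40a1 (0.84 each).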

How the data were processed

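Messenger RNA libraries of mouse liver had been made with a stranded kit, per the labels' protocols. The values are raw read counts, whole numbers that the authors deposited for all 26 libraries in 1 table. Per the submitters' processing notes, bcl2fastq 2.17.1.14, Trimmomatic, STAR 2.4.2a, Picard 1.119, HTSeq and the build GRCm38 (mm10) were used; the annotation release and the strand setting of counting are not given in the sources used here. Symbols matched 47224 of 47643 identifiers, and 5 summary lines (23 to 48.6% of reads) were left out of library sizes and tests.

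The 10 members and all gene lists were chosen with earlier results of these data known. Groups came from the sample titles. Each comparison was fitted on its own libraries with edgeR 4.0.16 (limma 3.58.1, R 4.3.3): filterByExpr (count of at least 10, total of at least 15), TMM scaling, the quasi-likelihood F test and Benjamini-Hochberg adjustment over all genes at 0.05. SE is the absolute log2 fold change over the square root of F. Printed CPM were scaled over all 26 libraries, so a ratio of CPM can differ slightly from the fitted fold change. The smallest level taken as seen was 3 counts, 0.0426 CPM in the deepest and 0.215 CPM in the shallowest library, and covers counting error only. Exon lengths, gene positions and overlaps came from GENCODE M21 on GRCm38, and promoter windows from RefSeq on GRCm38.p6. Correlations used log2(CPM + 0.5). The scripts were tested on simulated counts.

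The text names all 10 members, up to 3 called genes per direction of each list (those with the largest fold changes), the 3 genes most like Igf1, Socs2, Bcl6 and Cux2 among genes with a mean log2 CPM of at least 1, and Nr1h4, Nr0b2 and Cyp2b10; Igfbp1 levels, Xist and Ddx3y were added after their values were seen. Alternatives were other scalings, DESeq2 1.42.0, other filters, all 26 libraries in 1 fit, a replicate block and leaving out each library. The difference between the hepatectomy and cholic acid effects, and the list counts under alternatives, were chosen after seeing the data. Some genes of the lists are not reported here.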

Additional observations from a re-analysis of the deposited data

Results flagged for a closer look

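A difference between effects in 2 experiments, tested as an interaction in edgeR, passed the adjusted p of 0.05 for 14 pairs of member and comparison. Between the knockout and cholic acid effects these were Ghr (0.97 on the log2 scale), which fell less in the knockout, Stat5b (-1.44), which fell in the knockout and rose on cholic acid, and Cux2 (-4.95). Between the knockout and hepatectomy effects they were Igf1 (-0.77) and Bcl6 (-1.97), lower in the knockout, and Socs2 (1.90), Cish (2.34), Prlr (1.57) and Cux2 (4.39), higher there. Between the knockout and high fat effects they were Stat5b (-0.62), Igf1 (-1.27) and Igfals (-1.53). Between the hepatectomy and cholic acid effects, a pair added after the data had been seen, they were Stat5b (-1.41) and Cux2 (-9.32), the second of which had prompted the comparison. The experiments also differ in strain, age, feeding and tissue, which cannot be told apart from these differences. No group holds 4 libraries, so single libraries were not tested for standing apart.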

How the results depend on the processing

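Of 31 member values called, 15 kept their call in every alternative and every fit that left out 1 library; over the alternatives 203 of 217 values kept it, over the fits without 1 library 226 of 264, and 0 called values changed sign. Counts of genes called moved by over 1.5 times in these cases. For TCPOBOP the count of 0 became 94 with DESeq2 and 9 with all 26 libraries in 1 fit, and 0 to 1233 with 1 library left out (members 0 to 4). For high fat diet the 3333 genes became 1735 with all 26 libraries and 1141 to 2644 with 1 left out; the 0 members became 1 with total counts, 1 with the replicate block and 0 to 3 with 1 left out. For cholic acid the 600 genes became 1367 with DESeq2, 955 with no filter, 3132 with all 26 libraries and 189 to 1345 with 1 left out (members 1 to 5). For hepatectomy 2554 to 4217 genes were called with 1 library left out. With all 26 libraries in 1 fit the difference between knockout and cholic acid effects gave 2991 genes, that with hepatectomy 3 members, that with high fat diet 1282 genes and that between hepatectomy and cholic acid 2749 genes. With 1 library left out the last 2 gave 1269 to 2768 and 1089 to 2495 genes, and with no filter the knockout and high fat difference called 5 members. The cause of these shifts was not tested. Male-biased genes lowered after hepatectomy numbered 1 with all 26 libraries; male-biased genes lowered after TCPOBOP numbered 2 with DESeq2; female-biased genes raised on cholic acid numbered 2 with total counts, 5 with DESeq2, 7 with no filter, 7 with all 26 libraries and 4 with the replicate block.

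With library scaling by total counts alone the median log2 fold change of all genes was 0.19 (knockout), 0.20 (hepatectomy), 0.14 (high fat diet), 0.19 (cholic acid) and -0.11 (TCPOBOP). With TMM it was -0.01, 0.01, 0.01, 0.01 and -0.02 in the same order. The share of called genes that were raised moved from 51.9 to 76.4%, 53.4 to 78.0%, 53.7 to 74.2% and 47.5 to 69.6% in the first 4. Libraries with the same number are not stated to be pairs. They deviated together with r of -0.199 to -0.006 in the knockout and -0.075 to 0.106 in the hepatectomy comparison. In the cholic acid comparison r was 0.098 to 0.158, and every library correlated best with its own number. With so few libraries, r values this low cannot decide whether they were pairs. With the replicate block 0, 4763, 3664, 3693 and 480 genes and 0, 8, 8, 1 and 4 members were called in the 5 comparisons in the order given in the text (TCPOBOP, knockout, hepatectomy, high fat diet, cholic acid), and 1536, 4108, 1858 and 1497 genes and 2, 7, 4 and 2 members in the differences of the knockout effect from cholic acid, hepatectomy and high fat diet and of hepatectomy from cholic acid. With the block Cish (-0.84) and Socs2 (-1.64) after hepatectomy, Stat5a (0.55) in the knockout, Igf1 (-1.17) on cholic acid and Bcl6 (-0.82) on high fat diet passed, and Cux2 on cholic acid (5.28) did not. Of the differences, Ghr between knockout and hepatectomy (0.43) and Bcl6 between knockout and high fat diet (-1.58) passed with it, and Cux2 between knockout and cholic acid (-4.44) did not (adjusted p 0.0661 by edgeR). A count of 0 allows a level of up to 0.0426 to 0.215 CPM by library, and Cux2 in floxed chow 1 and 2 (3 and 2 counts) lay at or below it.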
